A study of Rattus norvegicus with 28 samples.

Results

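The receptors described here are 10 rat G protein-coupled receptors for noradrenaline and adrenaline, histamine and acetylcholine: Adra1a, Adra1d, Adra2a, Adra2c and Adrb1, Hrh1 and Hrh3, and Chrm1, Chrm2 and Chrm3. Several of them are bound by tricyclic antidepressants besides the transporters these drugs are given for. They were found on a 1-colour gene expression array of whole hippocampus as the probes whose transcript accession belongs to 1 of these symbols. All 10 genes had a probe, and together they had 12 of the 30367 probes for transcripts and 10 of the 15637 genes with a named probe.

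All rats were adult male Sprague-Dawley rats, and their hippocampus was taken 24 h after injury or sham injury. The 2 Sham rats were anaesthetised and prepared for surgery but received no injury. The 12 injured rats received parasagittal fluid percussion, a pressure pulse on the exposed dura that models traumatic brain injury (TBI), and fell into 4 groups of 3: TBI with no antidepressant, TBI+Imipramine, TBI+Prozac, and TBI+Zoloft as the last. Imipramine, a tricyclic antidepressant, and Prozac (fluoxetine) and Zoloft (sertraline), which are selective serotonin reuptake inhibitors, were given as 1 injection 1 h after injury at the same dose, and the study's methods give vehicle as the control. No group received a drug without injury.

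Noradrenaline reaches the hippocampus from the locus coeruleus, histamine from the tuberomammillary nucleus and acetylcholine from the septum. The alpha1 receptors, Hrh1, Chrm1 and Chrm3 act through Gq and phospholipase C, the alpha2 receptors, Hrh3 and Chrm2 act through Gi and Go, which lower cyclic AMP, and the beta receptors act through Gs, which raises it. Alpha2 receptors, Hrh3 and Chrm2 also sit on nerve endings, where they reduce transmitter release. Blockade of histamine, muscarinic and alpha1 receptors underlies the sedation, dry mouth and low blood pressure known from tricyclics.

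Levels below are log2 processed signals from which the log2 of the array's 75th percentile (over its detected probes) was subtracted, so that a level of 0 is that percentile, and a difference is a difference of such levels. A probe was tested if 1 or more groups had it well above background throughout, which held for 17322 probes, and a difference was called at an adjusted p under 0.05. Between 14676 and 18196 probes were above background per array, and TBI replicate 1 had the fewest. Sham was alone on slide 3, and its arrays were scanned on another day than those of the injured rats. The TBI arrays shared slide 1 with TBI+Prozac replicate 1, and the other 8 drug arrays lay on slide 2. Thus slide, scan day and group cannot be told apart in any comparison with Sham. Of 6 markers of hippocampal subfields, C1ql2, Wfs1, Pou3f1, Grik4 and Neurod6 were above background on all 14 arrays and Prox1, a marker of dentate granule cells, on none. The summed linear level of 6 choroid plexus markers ranged from 0.208 to 108 over the arrays and differed widely within groups.

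The receptors differed in how many arrays detected them. Adra1d, Adra2c, Hrh3 and Chrm3 were above background on all 14 arrays, and Chrm1 on 13 of them, all but TBI+Zoloft replicate 1. Adrb1 was above background on 4 arrays (TBI replicate 3, TBI+Imipramine replicate 2, TBI+Prozac replicate 1 and TBI+Zoloft replicate 3) and Hrh1 on 3 (TBI+Imipramine replicates 1 and 2 and TBI+Zoloft replicate 3). Adra1a, Adra2a and both probes of Chrm2 were above background on no array. Thus 5 of the 10 genes, with 6 of the 12 probes, could be tested, and for the others only the low signal can be stated. A probe's signal also depends on how well it binds, so that these levels do not rank the receptors against each other.

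**Figure D1:**
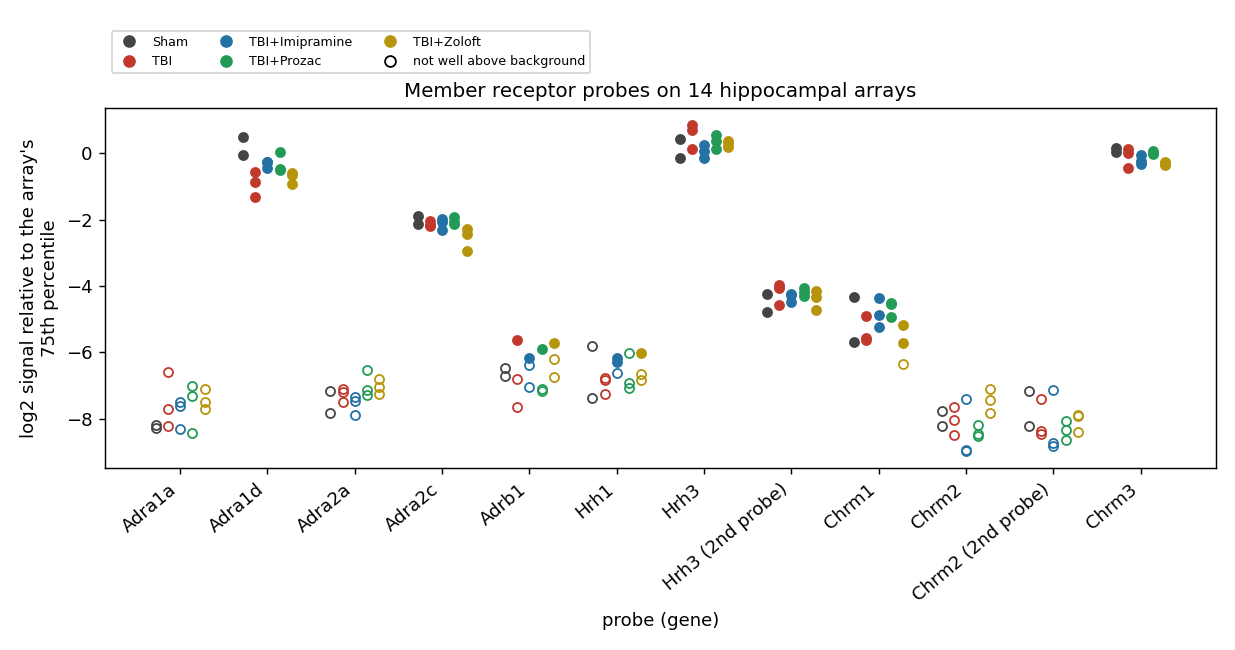
Log2 signal relative to the 75th percentile of each array (vertical axis) for the 12 probes of the 10 receptors on the 14 arrays, with filled points above background and open points not well above background. The points of Adra1a, Adra2a and Chrm2 are all open, and those of Adra1d, Adra2c, Hrh3 and Chrm3 are all filled.

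Adra1d, the alpha1D-adrenergic receptor, had the largest difference between TBI and Sham of the 5 tested receptors. Its level was -0.05 and 0.47 in the 2 Sham rats, and -0.56, -1.34 and -0.88 in the 3 TBI rats. Both Sham rats thus lay above all 3 TBI rats, and 42.3% of all probes had no overlap between these groups. The level fell by 1.14 on the log2 scale (SE 0.24, 95% interval -1.66 to -0.61, 2.20-fold lower, limma adjusted p = 0.00836). Of the 5 tested receptors, only this 1 was called in TBI against Sham, beside 16.6% of all probes tested. Its probe is printed in 10 spots per array, against 1 or 2 for the other receptors.

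The decrease of Adra1d was called under 25 of 27 alternative settings, 1 of them the methods' t-test without adjustment, with values from -1.40 to -0.87. It was not called without Sham replicate 2 (-0.87, adjusted p = 0.101) or with the methods' t-test after Benjamini-Hochberg adjustment (adjusted p = 0.274). Settings that left out an array of a drug group kept the difference at -1.14 and could change only the estimate of spread. No setting could separate slide or scan day from Sham. Before scaling, the processed signal of Adra1d was 1353 and 1808 in Sham and 1511, 673 and 796 in TBI, so that TBI replicate 1 lay between the Sham rats. That array had the highest 75th percentile of all, 2228, against 1302 and 1404 in Sham. In whole tissue, fewer cells of a type and less RNA per cell cannot be told apart. Of the 5 tested subfield markers, 1 was lower in TBI than in Sham (Pou3f1), and their summed linear level was 5.07 and 6.37 in Sham and 4.30 to 5.03 in TBI. Of 8 neuron markers, 1 was lower (Syt1), and their sum was 16.2 and 16.9 in Sham and 12.5 to 17.6 in TBI. Some markers of other cells were called higher in TBI than in Sham. These were Gfap of 6 astrocyte markers (1.88, adjusted p = 0.0142), and Cd68 (1.67, adjusted p = 0.026) and Itgam (1.05, adjusted p = 0.0254) of 6 markers of microglia and macrophages. Cldn5 of 4 tested endothelial markers (0.63, adjusted p = 0.0118) and Prkcd of 6 tested thalamus and striatum markers (1.21, adjusted p = 0.0492) were called too. Other members of these lists had a lower mean in TBI: Aqp4, Slc1a3, Gja1 and Aldh1l1 (astrocytes), Slc17a6, Drd2 and Ppp1r1b (thalamus and striatum), P2ry12 (microglia) and Cdh5 (endothelium). The median difference was -0.15 for astrocyte, 0.08 for thalamus and striatum, 0.66 for microglia and macrophage and 0.62 for endothelial markers. The summed level of the microglia and macrophage markers was 2.77 and 3.87 in Sham and 4.80 to 5.46 in TBI, and that of the astrocyte markers was 24.3 and 28.1 in Sham and 20.3 to 32.6 in TBI. The part of these markers in the Adra1d difference was not tested.

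In the drug groups the mean level of Adra1d lay between those of Sham and TBI. The level was -0.26, -0.45 and -0.28 with imipramine and -0.49, 0.045 and -0.49 with Prozac, and all 6 of these rats lay above all 3 TBI rats. The 2 groups did not overlap for 25.8% of all probes with imipramine and 15.1% with Prozac. With Zoloft it was -0.64, -0.61 and -0.92, within the range of the TBI rats. Against TBI the difference was 0.60 for imipramine (95% interval 0.12 to 1.07, adjusted p = 0.161) and 0.61 for Prozac (0.14 to 1.09, adjusted p = 0.381). For Zoloft it was 0.20 (-0.27 to 0.67, adjusted p = 0.73). None was called, beside 2.85% of probes called for imipramine, 0.00577% for Prozac and 1.38% for Zoloft, and the 3 comparisons share the same TBI arrays. At an unadjusted p under 0.05 in limma, 2 of the 5 tested receptors passed for imipramine, 1 for Prozac and 1 for Zoloft, beside 19.7%, 10.1% and 15.2% of all probes at that threshold. With slide as a fixed block, in which only TBI+Prozac replicate 1 links the drug arrays to TBI, the differences were 0.32, 0.43 and -0.08, with adjusted p of 0.884, 0.933 and 0.998. Against TBI, the median difference over all probes was 0.20 with imipramine, 0.15 with Prozac and 0.015 with Zoloft.

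Against Sham, all 9 drug-treated rats but TBI+Prozac replicate 2 had a lower Adra1d level than either Sham rat. Of all probes, 59.6% had no overlap with Sham for imipramine, 52.4% for Prozac and 38.3% for Zoloft. The level with Zoloft was lower by a log2 difference of -0.94 (SE 0.24, 95% interval -1.46 to -0.41, adjusted p = 0.0431), which was called. No other receptor was called there, which makes 1 of 5, beside 5.95% of probes. This call was kept under 8 of 27 alternative settings only, with adjusted p from 0.0276 to 0.314. Leaving out 1 array ended it in 11 of 14 cases, with the lowest difference, -1.20 (adjusted p = 0.0761), without Sham replicate 1 and the smallest in size, -0.67 (adjusted p = 0.314), without Sham replicate 2. The call was kept only without TBI replicate 1, TBI replicate 2 or TBI+Prozac replicate 2. The difference was -0.54 for imipramine (-1.07 to -0.01, adjusted p = 0.129) and -0.52 for Prozac (-1.05 to 0.006, adjusted p = 0.172). No receptor was called in these 2 comparisons, beside 23.4% and 14.9% of probes, and 1 and 0 of 5 passed an unadjusted p under 0.05, which 36.6% and 29.9% of probes passed. The 4 comparisons with Sham share the same 2 Sham arrays. Over the 5 groups together, Adra1d was the only receptor to pass limma's F test (adjusted p = 0.0303), which 20.2% of probes passed.

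**Figure D2:**
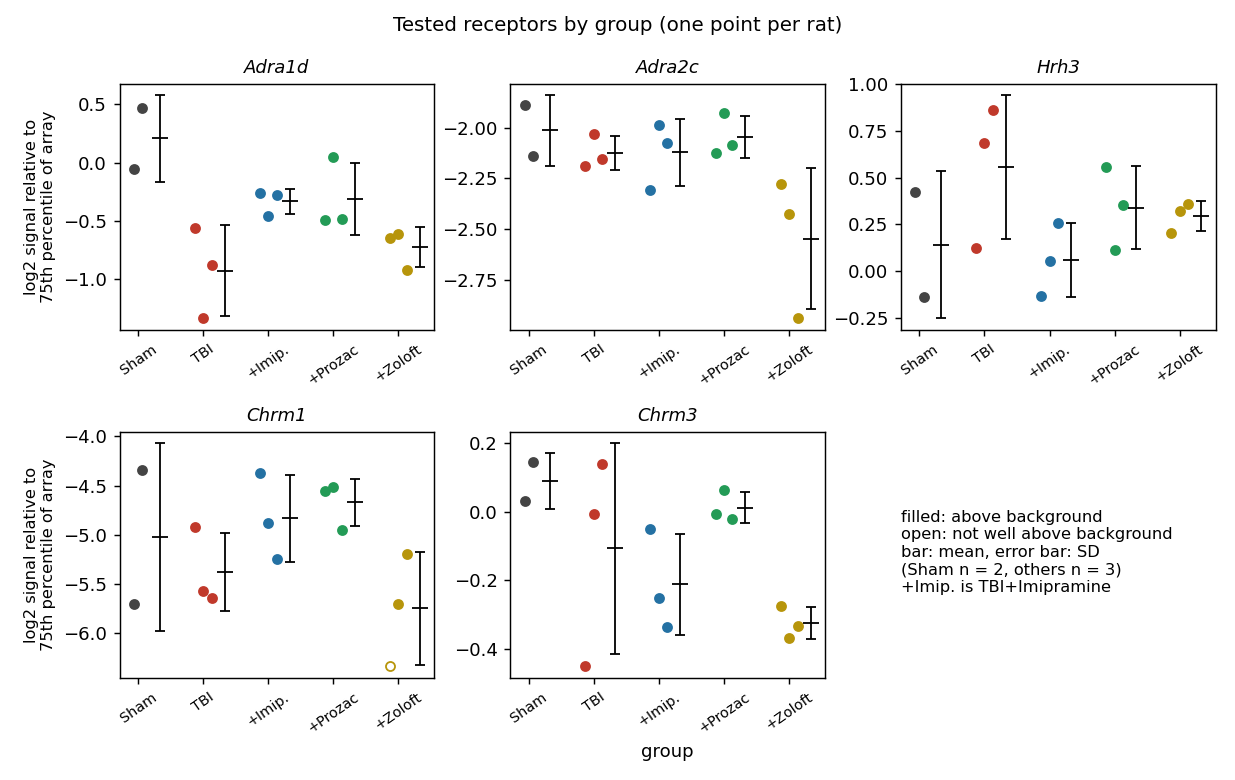
Log2 level (vertical axis) of the 5 tested receptors in every rat by group, with the group mean and SD beside the points (n = 2 for Sham, n = 3 for the others). Adra1d is highest in Sham and lowest in TBI, and the groups of the other 4 receptors overlap in most comparisons.

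Adra2c, the alpha2C-adrenergic receptor, which restrains noradrenaline release, showed no called difference. Its level was -1.89 and -2.14 in Sham, -2.19, -2.03 and -2.16 in TBI, -2.31, -1.98 and -2.07 with imipramine and -2.12, -1.93 and -2.08 with Prozac. It was -2.28, -2.43 and -2.94 with Zoloft. All 3 Zoloft rats lay below all Sham, TBI and Prozac rats, comparisons in which 38.3%, 15.3% and 25.6% of all probes had no overlap, and 1 imipramine rat lay within the Zoloft range. The difference of TBI from Sham was -0.11 (95% interval -0.52 to 0.30, adjusted p = 0.734), and the widest difference was that of Zoloft from Sham, -0.54 (-0.94 to -0.13, adjusted p = 0.114). Zoloft differed from TBI by -0.42 (-0.79 to -0.06, adjusted p = 0.244), and by -0.54 with slide as a fixed block (adjusted p = 0.998).

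Hrh3, the histamine H3 receptor on histaminergic and other nerve endings, was measured by 2 probes for different transcripts. With the brighter probe the level was 0.42 and -0.14 in Sham, 0.12, 0.69 and 0.86 in TBI, -0.14, 0.05 and 0.26 with imipramine, 0.55, 0.11 and 0.35 with Prozac and 0.20, 0.32 and 0.36 with Zoloft. Every group overlapped every other. The TBI mean was higher than the Sham mean by 0.42 (95% interval -0.09 to 0.92, adjusted p = 0.25), and the imipramine mean differed from the TBI mean by -0.50 (-0.95 to -0.05, adjusted p = 0.214). With the second probe, which has a single spot per array, the differences were 0.32 (adjusted p = 0.369) and -0.14 (adjusted p = 0.724). Both probes gave the same direction in these comparisons and neither was called. Their directions differed for imipramine against Sham (-0.08 and 0.18), Prozac against TBI (-0.22 and 0.01) and imipramine against Zoloft (-0.23 and 0.06).

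Chrm1, the main muscarinic receptor of hippocampal pyramidal cells, was measured close to background by 1 spot per array. The level was -5.70 and -4.35 in Sham, -4.92, -5.57 and -5.64 in TBI, -4.37, -4.88 and -5.25 with imipramine, -4.55, -4.51 and -4.95 with Prozac and -6.34, -5.71 and -5.19 with Zoloft. The 2 Sham rats alone spanned most of the range of the other groups. TBI differed from Sham by -0.35 (95% interval -1.26 to 0.55, adjusted p = 0.611). All 3 Prozac rats lay above all 3 Zoloft rats, and 25.6% of all probes had no overlap there. This difference, 1.07 (0.26 to 1.89, adjusted p = 0.124), was the largest of Chrm1.

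Chrm3, a muscarinic receptor coupled to Gq like Chrm1, had levels within a narrow range. Its level was 0.03 and 0.15 in Sham, -0.45, -0.01 and 0.14 in TBI, -0.05, -0.25 and -0.33 with imipramine, -0.01, 0.06 and -0.02 with Prozac and -0.27, -0.37 and -0.33 with Zoloft. The Zoloft rats lay below both Sham rats and all Prozac rats, and the imipramine rats below both Sham rats. The shares of all probes without overlap in these comparisons were 38.3%, 25.6% and 59.6%. TBI differed from Sham by -0.19 (95% interval -0.55 to 0.16, adjusted p = 0.46), Zoloft by -0.41 (-0.77 to -0.06, adjusted p = 0.161) and imipramine by -0.30 (-0.66 to 0.06, adjusted p = 0.211). The last 2 were called where the scaling was changed. With quantile normalization the difference from Sham was -0.46 for imipramine (adjusted p = 0.00967) and -0.42 for Zoloft (adjusted p = 0.0312), and 3 further scalings gave the same calls, given with the other settings. The main scaling placed the median of all probes 0.18 above Sham for imipramine and quantile normalization placed it at -0.05, while the split of called probes moved from 3423 higher and 623 lower to 2542 higher and 2656 lower. For Zoloft against Sham the split moved from 720 higher and 311 lower to 1179 higher and 999 lower.

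The 3 drugs were compared with each other in 3 pairs at the same dose and time. Imipramine is a tricyclic amine, while Prozac and Zoloft have other ring systems and share selectivity for the serotonin transporter. No tested receptor was called in any pair, beside 0.00577% of probes for imipramine against Prozac, 5.29% for imipramine against Zoloft and 3.69% for Prozac against Zoloft. The F test over the 3 drug groups called none either, beside 3.18% of probes. At an unadjusted p under 0.05, 0, 2 and 3 of the 5 receptors passed in these pairs, beside 6.91%, 23.6% and 21.0% of all probes.

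The intervals of these differences were wide. For Adra1d, imipramine minus Prozac was -0.02 (95% interval -0.49 to 0.45), imipramine minus Zoloft was 0.40 (-0.07 to 0.87) and Prozac minus Zoloft was 0.42 (-0.06 to 0.89). Within slide 2 these 3 differences were -0.11, 0.40 and 0.51. For Adra2c, imipramine minus Zoloft was 0.43 (0.06 to 0.79, adjusted p = 0.146) and Prozac minus Zoloft was 0.50 (0.14 to 0.87, adjusted p = 0.111), and within slide 2 they were 0.43 and 0.54. For Chrm1, imipramine minus Zoloft was 0.91 (0.10 to 1.72, adjusted p = 0.159), and imipramine minus Prozac was -0.16 (-0.97 to 0.65). Hrh3 had the smallest difference between Prozac and Zoloft, 0.05 (-0.41 to 0.50). These intervals leave room for differences of up to 1.89 on the log2 scale, and missing the threshold does not show that the drugs acted alike on these receptors.

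**Figure D3:**
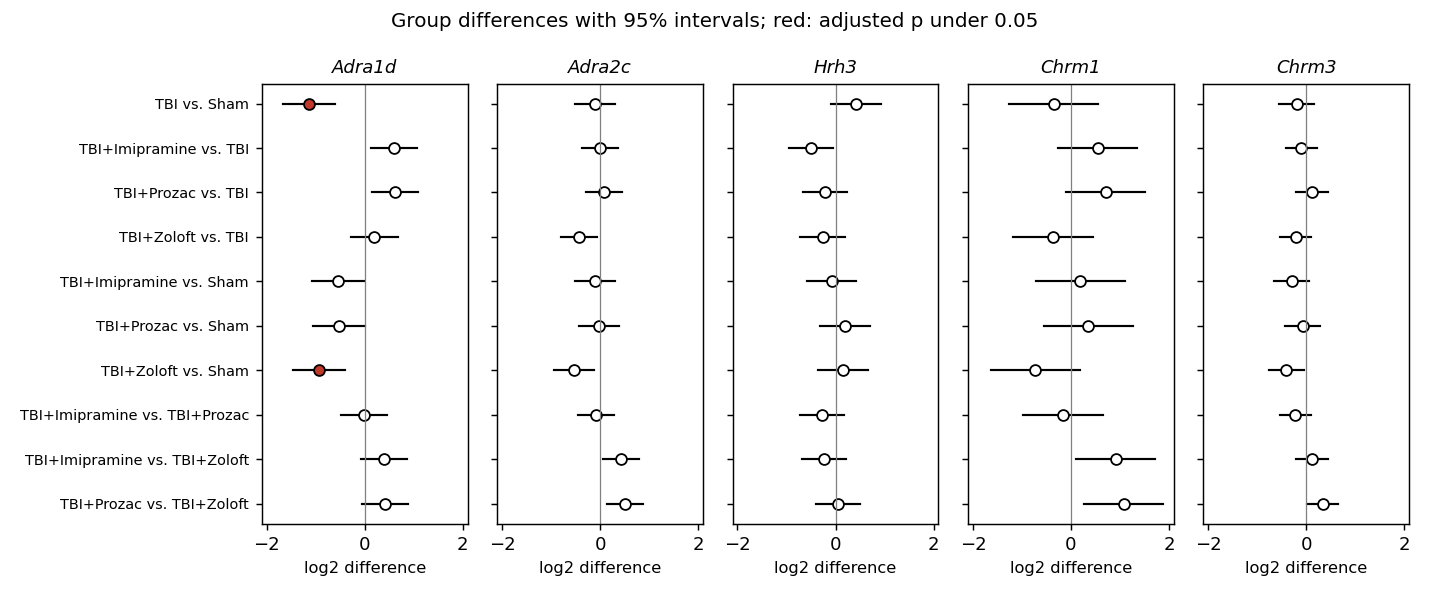
Log2 differences (horizontal axis) with 95% intervals of the 5 tested receptors in the 10 comparisons, with called differences in red. Adra1d in TBI against Sham (-1.14) and in TBI+Zoloft against Sham (-0.94) are the only called values.

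The 5 untested receptors stayed near the lowest levels that the arrays measured. The level over the 14 arrays was -8.44 to -6.59 for Adra1a, -7.90 to -6.54 for Adra2a and -8.98 to -7.11 and -8.83 to -7.13 for the probes of Chrm2. It was -7.66 to -5.64 for Adrb1, the main beta receptor of forebrain neurons, and -7.39 to -5.80 for Hrh1, the receptor through which antihistamines sedate. The lowest level of any probe above background was between -6.86 and -5.69 per array. No fold is given for these receptors, since both sides of every comparison hold arrays not well above background.

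Further receptors of the same families, which are listed because they bind the same transmitters, were in part lower after injury too. Of 8 further receptors listed, 7 had a probe and 6 were tested, and Chrm5 was not well above background on any array. Adrb3 passed the filter only through Sham, the group where it was high, and is therefore left out of the counts. Of the other 5, 2 were lower in TBI than in Sham (Adra2b and Hrh4) and 0 higher, beside 8.32% of probes called lower, with a median of -0.47 beside 0.0015 over all probes. Against Sham, 2 of the 5 were lower with imipramine (Adra2b and Chrm4), 1 with Prozac and 1 with Zoloft (Adra2b in both), and 0 were higher, beside 3.60%, 3.16% and 1.80% of probes called lower. Against TBI, 1 was higher with Zoloft (Adra2b), beside 1.16% of probes called higher, and 0 with imipramine or Prozac.

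Adra2b, the alpha2B-adrenergic receptor, was above background on all 14 arrays. Its level was -3.50 and -3.21 in Sham, -5.36, -5.01 and -5.02 in TBI, -4.51, -4.48 and -4.37 with imipramine, -4.94, -4.63 and -4.55 with Prozac and -4.39, -4.29 and -3.86 with Zoloft. All drug-treated rats lay below both Sham rats and above all 3 TBI rats. For imipramine, Prozac and Zoloft in turn, 59.6%, 52.4% and 38.3% of all probes had no overlap with Sham. The shares without overlap with TBI were 25.8%, 15.1% and 15.3%. TBI differed from Sham by -1.77 (SE 0.19, adjusted p = 0.000199), imipramine by -1.09 (adjusted p = 0.00197), Prozac by -1.35 (adjusted p = 0.0015) and Zoloft by -0.83 (adjusted p = 0.025). Against TBI, Zoloft differed by 0.95 (SE 0.17, adjusted p = 0.0279) and imipramine by 0.68 (adjusted p = 0.054). The Zoloft difference from TBI was 0.60 with slide as a fixed block (adjusted p = 0.998), and its call ended without TBI replicate 1 or 2, TBI+Imipramine replicate 1 or 2, or TBI+Zoloft replicate 2 or 3. With normexp background correction, which adds an offset to low signals, the TBI difference from Sham was -0.93 (adjusted p = 0.00074). That of Zoloft from Sham was -0.39 there (adjusted p = 0.152), and its call also ended without either Sham array or TBI+Zoloft replicate 1 or 2.

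Adrb3, the beta3-adrenergic receptor, was above background on the 2 Sham arrays only, at -5.01 and -4.70. On the 12 arrays of injured rats it was not well above background, with measured levels from -8.14 to -6.17. The bounds set by the weakest signal above background were at least 2.60-fold lower in TBI, 3.16-fold with imipramine, 3.34-fold with Prozac and 2.72-fold with Zoloft. These are a description, since the filter kept the probe through Sham alone and fixed the direction. Hrh4, a histamine receptor best known from immune cells, was at least 1.53-fold lower in TBI (adjusted p = 0.0351), and its call ended without Sham replicate 1, TBI replicate 1 or TBI replicate 2 (adjusted p = 0.28, 0.0861 and 0.0545). Chrm4, coupled to Gi, was lower with imipramine than in Sham by a log2 difference of -0.77 (adjusted p = 0.0101), or -0.65 without Sham replicate 1 (adjusted p = 0.0913).

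**Figure D4:**
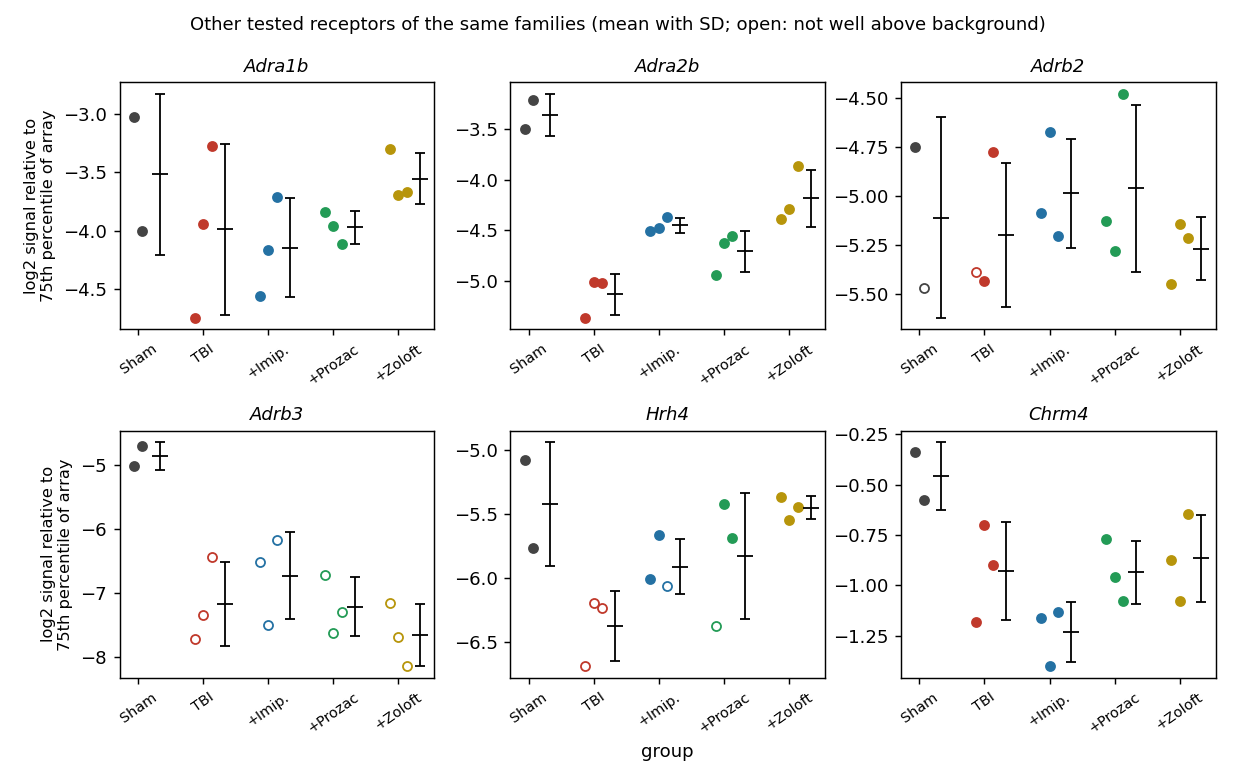
Log2 level (vertical axis) of 6 further receptors of the 3 families in every rat by group, with mean and SD (n = 2 for Sham, n = 3 for the others) and open points not well above background. Adra2b is highest in Sham and lowest in TBI, and Adrb3 has filled points in Sham alone.

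Counts of genes of the pathways below these receptors stand beside the 16.6% of all probes called in TBI against Sham. Of 6 tested genes of Gq coupling, 3 were called. Plcb3, a phospholipase C, rose in TBI against Sham (1.14, adjusted p = 0.00225), while Itpr1, the calcium release channel that phospholipase C signalling opens (-0.54, adjusted p = 0.0379), and Prkcb, a protein kinase C (-0.50, adjusted p = 0.0463), fell. With normexp the Plcb3 difference was 0.29 (adjusted p = 0.178), and it was not called against Sham with imipramine or Prozac either. Of 8 genes of Gi and Go coupling and 6 of Gs coupling, 0 were called. Of 10 genes of receptor desensitisation, Arrb1, a beta-arrestin, was called higher in TBI than in Sham (0.77, adjusted p = 0.0162). It was not well above background on the Sham arrays and was above it on 2 of the 3 TBI arrays. No bound on its fold is therefore given there. With imipramine against Sham, Gnai3 (0.77, adjusted p = 0.0267) and Grk2 (0.52, adjusted p = 0.0292) were higher, where the median of all probes was 0.18. In that comparison 23.4% of all probes were called, and 14.9% in the comparison of Prozac with Sham. Plcb3 was also higher with imipramine (1.16, adjusted p = 0.00147) and Prozac (1.12, adjusted p = 0.00382) than in Sham. Arrb1 and Gnaz passed the filter only through the imipramine and Prozac groups, and their differences of imipramine from Sham (at least 1.62-fold for Arrb1, and 0.85 for Gnaz) are a description. Grk2 was higher with Prozac (0.51, adjusted p = 0.0441), and Prkcb was lower with imipramine (-0.51, adjusted p = 0.0338). With normexp, which compresses low signals, the Gnaz and Arrb1 differences of imipramine from Sham were -0.0196 and -0.0222, and that of Arrb1 in TBI was 0.10 (adjusted p = 0.656). The Plcb3 calls against Sham were kept with any 1 of the 14 arrays left out. The Itpr1 call ended in 7 of these 14 cases, the Prkcb call in TBI in 11, and the Arrb1 call in TBI in 2, the 2 Sham arrays. With imipramine against Sham, the calls of Prkcb and Gnai3 ended in 4 cases each and that of Grk2 in 5, always including both Sham arrays, and the call of Grk2 with Prozac ended in 9. Under quantile normalization the Grk2 difference of imipramine from Sham (0.25) was not called.

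Counts of transmitter genes in TBI against Sham likewise stand beside 16.6% of all probes called. Th, which makes the catecholamine precursor, was lower in TBI than in Sham by a log2 difference of -0.94 (adjusted p = 0.0304), 1 of 7 tested noradrenaline genes, and the call ended without either Sham array or TBI replicate 1. Dbh, also on the noradrenaline list, was above background on 0 arrays and was not tested. Hnmt, the enzyme that inactivates histamine in brain, was 1 of 2 tested histamine genes. Against Sham it was lower in TBI (-0.84, adjusted p = 0.0284), with imipramine (-0.99, adjusted p = 0.00991) and with Zoloft (-1.05, adjusted p = 0.0214). All 3 calls ended without Sham replicate 1. The TBI call also ended without TBI replicate 1 or 2, and the Zoloft call without TBI+Zoloft replicate 3. With normexp the Hnmt differences were -0.46 in TBI (adjusted p = 0.11), -0.61 with imipramine (adjusted p = 0.0343) and -0.43 with Zoloft (adjusted p = 0.225). Of 3 tested acetylcholine genes, 0 were called, and Chat was above background on 0 arrays. No gene of these pathway and transmitter lists was called for any drug against TBI, beside 2.85% of all probes for imipramine, 0.00577% for Prozac and 1.38% for Zoloft. Between drugs, Plcb3 was higher with imipramine than with Zoloft (0.66, adjusted p = 0.0449), and Gna11 (0.90, adjusted p = 0.0452) and Maob (0.78, adjusted p = 0.0307) were higher with Prozac than with Zoloft. These 3 calls ended in 10, 10 and 6 of the 14 cases with 1 array left out. With normexp the differences of Plcb3 and Gna11 were 0.19 (adjusted p = 0.449) and 0.21 (adjusted p = 0.444). Neither was called under quantile normalization (adjusted p = 0.128 and 0.0727) or the 3 other scalings, and with slide as a fixed block none of the 3 was called (adjusted p = 0.064 for Plcb3, 0.192 for Gna11 and 0.143 for Maob).

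Among 9920 named probes above background on all arrays, the 3 whose levels followed Adra1d most closely over the 14 arrays were those of Jph3 (Pearson's r 0.83, Spearman's rho 0.82), Pkp2 (0.83 and 0.78) and Snn (0.83 and 0.84). Over the 12 injured arrays alone r was 0.67, 0.70 and 0.72. The arrays share slides and scaling, and these values are a description of the closest patterns among many.

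The sequence before the start of Adra1d is shown because, of the 5 tested among the 10 receptors described here, only Adra1d was called in TBI against Sham. It is the RefSeq promoter of assembly GRCr8, the 250 bases before the gene's start on the minus strand, chr3:139262332-139262581, written 5′ to 3′ along the gene with CG dinucleotides in capitals.
Adra1d: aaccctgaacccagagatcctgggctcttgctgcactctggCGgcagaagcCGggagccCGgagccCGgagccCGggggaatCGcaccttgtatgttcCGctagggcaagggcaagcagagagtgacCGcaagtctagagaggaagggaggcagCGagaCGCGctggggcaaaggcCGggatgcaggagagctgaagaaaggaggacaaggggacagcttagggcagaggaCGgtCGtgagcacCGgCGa
It holds 16 CG dinucleotides, and 23.8% of 33469 rat promoter windows of the same length hold as many, with a median of 5. In the 300 bases from 250 before to 50 after the start, GC content was 65.7%, against a median of 51.7%. This window held none of 5 motifs searched on both strands: GGGCGG (in 33.1% of all windows), TGACG (21.2%), TATAAA (14.2%), CCAAT (37.5%) and CANNTG (72.1%). Of the 10 receptors, 9 had such a window, and of these 5 held GGGCGG, 3 TGACG, 0 TATAAA, 2 CCAAT and 4 CANNTG.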

How the data were processed

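The authors extracted RNA from hippocampus and hybridised 1 array per rat (14 arrays), which Agilent Feature Extraction (version 11.5.1.1 per the submitters' processing notes and headers) read into spot intensity. The deposited scanner files give processed intensity on a linear scale, after removal of background and spatial trend, and other values, the flags (0 or 1) for spots above background, outlying or saturated. The deposited series table of the authors holds processed intensity scaled per array. Per the study's methods, values were scaled to the 75th percentile of probes above background and tested with a t-test with a fold limit of 1.2.

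Control spots and spots with an outlier flag were left out, a probe's other spots were averaged, and a probe counted as above background where over 0.5 of its spots were. Log2 values were taken relative to the array's 75th percentile of probes above background. Accessions were named through the RefSeq table of GRCr8 (18643 of 30367 probes), whose gene coordinates are not given for the array, since the array headers name an older build. Where a gene had several probes, the one above background on most arrays stood for it, with ties decided by the higher mean. Differences were fitted over all 14 arrays and 17322 probes with limma 3.58.1 (lmFit, eBayes, two-sided, Benjamini-Hochberg, threshold 0.05) in R 4.3.3, tables were read with Python 3.11.15 and pandas 2.3.3, and the code was tested on simulated data. Every one of the 10 receptors was named, with all its probes, and of the lists of further receptors, pathways and transmitters those genes past the threshold, with cell type markers named for TBI against Sham. The number of arrays limits the precision. The rats are separate animals, and the p-values weigh a difference against the spread between rats within groups, estimated over the 5 groups together. In comparisons with Sham the difference also holds any effect of slide and scan day.

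The receptors and gene lists were chosen with earlier results of these data known. Alternatives were the background correction (normexp with offset 50, on the median signal because the files used hold no mean signal), the scaling, the filter on dim probes, outlier spots, slide as a block, the replicate number as a block, the groups compared alone, the methods' t-test and each array left out. The miRNA arrays were not used here.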

Additional observations from a re-analysis of the deposited data

How the results depend on the processing

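In TBI against Sham 1 receptor, Adra1d, was called, but 0 with the methods' t-test after Benjamini-Hochberg adjustment, and 0 to 1 with 1 array left out (0 without Sham replicate 2). In TBI+Imipramine against Sham, 0 became 1 (Chrm3) with quantile normalization (-0.46, adjusted p = 0.00967), with the 75th percentile over all probes (-0.55, adjusted p = 0.00448), with the series table (-0.55, adjusted p = 0.00418) and with centring on the median (-0.57, adjusted p = 0.00368). In TBI+Zoloft against Sham these 4 settings called 1 receptor as before, but Chrm3 (adjusted p = 0.0312, 0.0248, 0.0227 and 0.0244) in place of Adra1d. Quantile normalization, the 75th percentile over all probes and the series table called 2656, 2823 and 2817 of 17322 probes lower for imipramine. In TBI+Zoloft against Sham these scalings called 999, 933 and 928 lower. There 0 were called without a filter on dim probes, with the groups compared alone, with the replicate block and with the adjusted t-test, 2 with the unadjusted t-test (Adra1d and Chrm3), and 0 to 1 with 1 array left out. At an unadjusted p under 0.05 in limma, 3 of the 5 receptors and 22.3% of all probes passed there. The unadjusted t-test also called 1 receptor in TBI+Imipramine against TBI+Zoloft (Adra1d) and 2 in TBI+Prozac against TBI+Zoloft (Chrm1 and Chrm3). After adjustment, limma called 0 in both pairs. At an unadjusted p under 0.05 it passed 2 and 3 of the 5 receptors, beside 23.6% and 21% of all probes. Why calls changed between the other settings was not tested. With normexp, 2 differences of TBI+Imipramine from Sham reversed, Gnaz (-0.0196) and Arrb1 (-0.0222).

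Replicate numbers were shared between groups, but did not pair the rats: of 26 pairs with the same number, 2 had deviations correlated over 0.1 (range -0.23 to 0.23). With the replicate block, the Adra1d difference was -1.10 in TBI against Sham (adjusted p = 0.0227) and -0.90 in TBI+Zoloft against Sham (adjusted p = 0.096). With 2 Sham arrays, all on 1 slide, each comparison with Sham rests on both of them. Of the 10 receptors, 5 had too little signal over background to be tested.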
